A study of Drosophila melanogaster with 12 samples.

Results

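The *Cpr* genes are the largest family of cuticular protein genes in *Drosophila melanogaster*, and each is named for the cytological position it maps to. They were taken here as the protein coding genes of the Ensembl annotation of the BDGP6 genome whose symbol starts with *Cpr* and a digit. This gave 70 genes, all 70 of which were among the 18119 genes tested. The quantity measured at each was the binding of *Polycomblike* (*Pcl*) to its chromatin in the sweet taste neurons of flies on a control or a sugar diet. The level of a gene is the mean log2 ratio of *Dam::Pcl* to *Dam* methylation over the gene and 1 kb on each side, weighted by the length of the GATC fragments.

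Most *Cpr* proteins carry a chitin-binding stretch known as the Rebers and Riddiford consensus, and they form, with chitin, the body wall and the linings of the trachea and foregut. Epidermal cells transcribe them in pulses tied to moulting, and a role in neurons is not known for them. *Pcl* is an accessory subunit of Polycomb Repressive Complex 2.1, whose catalytic subunit methylates lysine 27 of histone H3 at silenced genes. A ratio above 0 means that, as the authors normalized the data, fragments were methylated more by the fusion than by free *Dam*, and below 0 the reverse. The normalization option is not given in the sources used here, so 0 is a relative point and not an absolute mark of binding. The ratio measures occupancy and not transcription.

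In targeted DamID (TaDa), an adenine methyltransferase fused to a chromatin protein marks the GATC sites it comes near, in the cells that express it. The fusion flies were *Gr5a;tubulinGAL80ts>UAS-LT3-Dam::Pcl*, in which the promoter of the sweet receptor gene *Gr5a* drives the transgene and a temperature-sensitive GAL80 holds it off until the flies are warmed. The denominators were flies of genotype *Gr5a;tubulinGAL80ts>UAS-LT3-Dam*, and which *Dam* sample served which ratio is not given in the sources used here. Flies of both sexes were collected 2 days after eclosion and placed at day 5 on a diet with 5% sucrose (control diet) or 30% sucrose (sugar diet), at 20°C until day 6 and then at 29°C for induction, as the labels give it. The paper describes 3 days on the diets and then warming between days 3 and 4, to another induction temperature. The sample titles read 4 days, which goes with the paper. The labels differ from both, so the time on diet is not settled here. Each diet had 3 replicates of 300 pooled heads. All groups share the driver, the GAL80 and the warming. The levels of the taste receptor, neuronal, glial and support cell markers are levels of binding and could not test the cell type. *Gr5a* itself had levels of 0.23 (control diet) and 0.19 (sugar diet). The other sweet receptor genes differed between the diets in opposite directions, *Gr61a* with 0.20 and 0.86 and *Gr64f* with −0.01 and −0.32. The neuronal markers went both ways, with *elav* at 0.46 and 0.20, *brp* at 0.25 and 0.12 and *nSyb* at −0.05 and 0.25. The replicates of *brp* overlapped between the diets. Both glial markers were higher on the sugar diet, *repo* with 0.92 and 1.71 and *moody* with −0.34 and 0.29.

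The 250 bases upstream of 4 members are shown because these genes recur below, as the largest fall, the largest rise and the pair with identical coding sequences. All 4 lie on chromosome arm 3L and were read, in the direction of transcription, from the Release 6 reference genome, with the GATC sites that *Dam* methylates in capitals. The *Cpr65Au* stretch is chr3L:6132110-6132359 (minus strand), that of *Cpr65Ec* is chr3L:7092954-7093203 (plus strand), and those of *Cpr65Ax1* and *Cpr65Ax2* are chr3L:6147988-6148237 and chr3L:6150858-6151107 (both minus strand). None overlaps an annotated exon.
Cpr65Au: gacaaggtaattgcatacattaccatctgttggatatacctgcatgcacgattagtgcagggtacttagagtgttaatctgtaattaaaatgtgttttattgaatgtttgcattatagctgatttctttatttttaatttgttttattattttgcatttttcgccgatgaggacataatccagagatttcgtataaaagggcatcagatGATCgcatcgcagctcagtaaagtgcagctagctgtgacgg
Cpr65Ec: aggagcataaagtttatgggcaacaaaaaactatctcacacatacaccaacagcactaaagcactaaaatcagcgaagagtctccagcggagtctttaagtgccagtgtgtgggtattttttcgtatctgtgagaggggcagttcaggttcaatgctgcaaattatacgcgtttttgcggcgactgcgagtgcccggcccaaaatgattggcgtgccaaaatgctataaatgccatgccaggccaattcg
Cpr65Ax1: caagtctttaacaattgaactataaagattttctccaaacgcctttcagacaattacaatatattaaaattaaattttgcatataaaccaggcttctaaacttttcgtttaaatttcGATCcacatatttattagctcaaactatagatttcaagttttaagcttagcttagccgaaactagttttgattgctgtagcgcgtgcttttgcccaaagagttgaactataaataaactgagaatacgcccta
Cpr65Ax2: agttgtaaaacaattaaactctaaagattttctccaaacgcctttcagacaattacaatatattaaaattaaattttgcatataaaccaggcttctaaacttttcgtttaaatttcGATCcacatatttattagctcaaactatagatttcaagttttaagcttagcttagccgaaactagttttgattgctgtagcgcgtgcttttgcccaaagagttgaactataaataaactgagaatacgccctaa
The *Cpr65Au* stretch holds 1 GATC site and the *Cpr65Ec* stretch holds 0. In 45 of the 70 *Cpr* genes (64.3%) the 250 bases upstream held at least 1 GATC, against 38.2% of the 13941 protein coding genes tested. The TATA box letters TATAAA, searched on both strands, were in 49 of the 70 *Cpr* stretches and 43.0% of all. GCCAT, the core of the site of the Polycomb recruiter Pho, was in 35 of the 70 and 35.7% of all. GAGAG, the letters bound by GAGA factor, was in 21 of the 70 and 25.7% of all. These are counts of letters, also taken on both strands, and not of bound sites, and stretches of neighbouring genes can overlap.

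The members fall into 10 clusters of at least 3 genes in which each gene lies within 20 kb of the next, with 45 genes, and 25 scattered genes. The clusters were 47E (7 genes) and 49A (8 genes) on chromosome arm 2R, and 62B (3 genes), 64A (4 genes), 65A (7 genes), 65E (3 genes), 67F (3 genes), 72E (3 genes), 76B (4 genes) and 78C (3 genes) on 3L. The genes are short, from 457 to 18590 bp with a median of 1093.5 bp, so for most of them the flanks made up more of the window than the gene. Each window held 5 to 78 GATC fragments, with a median of 15, as for all genes tested. Because neighbours lie close together, 20 adjacent pairs, involving 35 genes, had overlapping windows and shared fragments, and their values are not independent.

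On the control diet the *Cpr* genes had levels close to 0. Their median was 0.07, against 0.04 for all genes tested, and 42 of the 70 lay above 0. On the sugar diet both medians were −0.03, and 31 *Cpr* genes lay above 0. Their spread was narrow. The SD of the levels across the 70 genes was 0.31 on the control diet, against 0.73 across all genes, and the levels ran from −0.76 to 0.61, against −2.16 to 6.66 for all genes. By control diet level 0 *Cpr* genes lay above the 90th percentile of all genes, 14 above the 75th, 12 below the 25th and 3 below the 10th. For scale, the 8 Hox genes, classical Polycomb targets, had a median level of 2.64, and 88 genes of cytoplasmic ribosomal proteins had a median level of −0.33.

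*Cpr65Eb* had the highest level of the family on the control diet, at 0.74, 0.56 and 0.52 in the 3 replicates. Next came *Cpr78Cb*, at 0.62, 0.57 and 0.49. *Cpr66D* followed at 0.70, 0.51 and 0.40, so the replicates of these neighbours in the order overlapped. *Cpr49Ad* had levels of 0.63, 0.52 and 0.45, and those of *Cpr65Ea* were 0.56, 0.71 and 0.12, the widest spread of the upper 5. At the other end, *Cpr64Ad* had levels of −0.62, −0.91 and −0.76. Those of *Cpr60D* were −0.67, −0.84 and −0.58, and those of *Cpr57A* were −0.67, −0.66 and −0.64. These low genes overlapped each other and lay apart from *Cpr64Aa*, with −0.49 in each of its control replicates, and from *Cpr47Ea*, with −0.53, −0.46 and −0.27. The SD between replicates ranged over the 70 genes from 0.0027 to 0.34 on the control diet, with a median of 0.10, and had a median of 0.12 on the sugar diet.

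**Figure D1:**
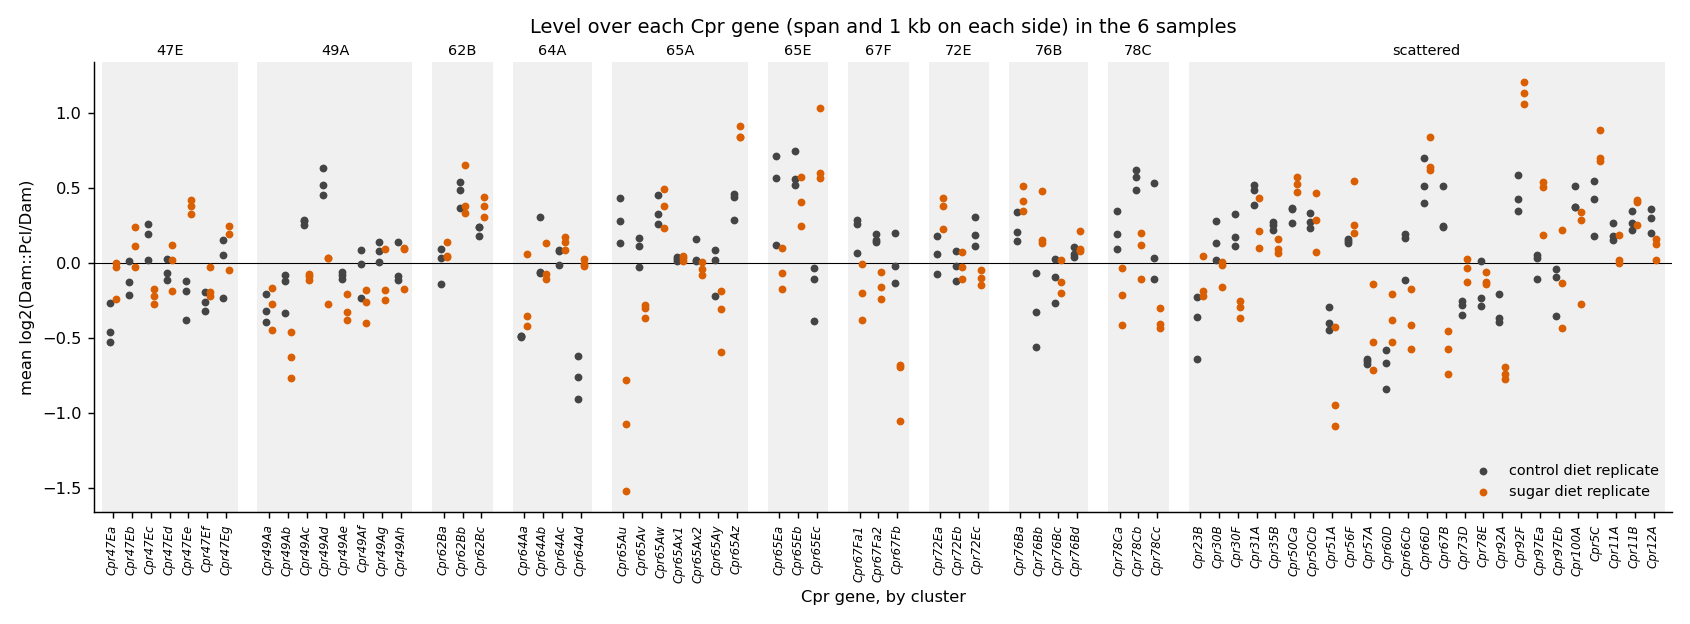
Mean log2(*Dam::Pcl/Dam*) over each of the 70 *Cpr* genes with 1 kb on each side (vertical axis), by cluster (horizontal axis), with 1 point per sample, grey for the 3 control diet and orange for the 3 sugar diet replicates. Control diet levels run from −0.76 to 0.61 as means of 3 replicates, and the sugar diet means of *Cpr65Au* and *Cpr92F* lie farthest from 0.

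None of the 70 genes overlapped a *Pcl* peak. Peaks were runs of at least 2 consecutive fragments above a high quantile of the sample, at a false discovery rate under 0.01, and 1505 were common to the 3 control diet replicates and 1522 to the 3 sugar diet replicates. Of all genes tested, 6.55% overlapped a common peak of either diet, and 0 of the 70 *Cpr* genes did. A peak in even 1 replicate overlapped 10.1% of all genes and again 0 *Cpr* genes. This did not rest on the run length alone. Of the 1114 fragments in the *Cpr* windows, between 2 and 8 per sample (0.18% to 0.718%) exceeded the value that 5% of all fragments exceed. The highest single fragments, as means of 3 replicates, were one of 2.10 at *Cpr65Eb* on the control diet and one of 3.01 at *Cpr92F* on the sugar diet. The nearest common peak lay between 2.23 kb (*Cpr66D*) and 431.1 kb away, with a median of 107.9 kb against 78.6 kb for all genes. *Cpr66D*, *Cpr11A*, *Cpr65Au*, *Cpr65Ea* and *Cpr65Eb* had one within 10 kb, which is 5 of 70 genes against 14.9% of all genes. With windows of 5 kb on each side, 2 genes overlapped a common peak.

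Between the diets, 31 of the 70 *Cpr* genes changed (limma, Benjamini-Hochberg adjusted p-value under 0.05 over all genes tested), 12 higher and 19 lower on the sugar diet. This is 44.3% of the family, against a background of 48.0% of all genes tested. For the directions, the background was 22.3% higher and 25.7% lower. The 3 replicates of one diet lay entirely above or below those of the other at 42 *Cpr* genes (18 higher, 24 lower), 60.0% of them against 59.9% of all genes. The shares called were thus near those of all genes. The median difference, sugar minus control, was 0.00 for the family and −0.01 for all genes. The differences were mostly small, as 12 *Cpr* genes differed by more than 0.5 on the log2 scale against 21.8% of all genes, and 1 by more than 1. Without control diet replicate 1 the count of calls was 19, against 36.6% of all genes, and without control diet replicate 2 it was 20, against 33.6%. Against a minimum fold change of 1.5 (limma's treat), 0 *Cpr* genes passed after adjustment and 4 had an unadjusted p-value under 0.05, against 1.34% and 7.54% of all genes.

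**Figure D2:**
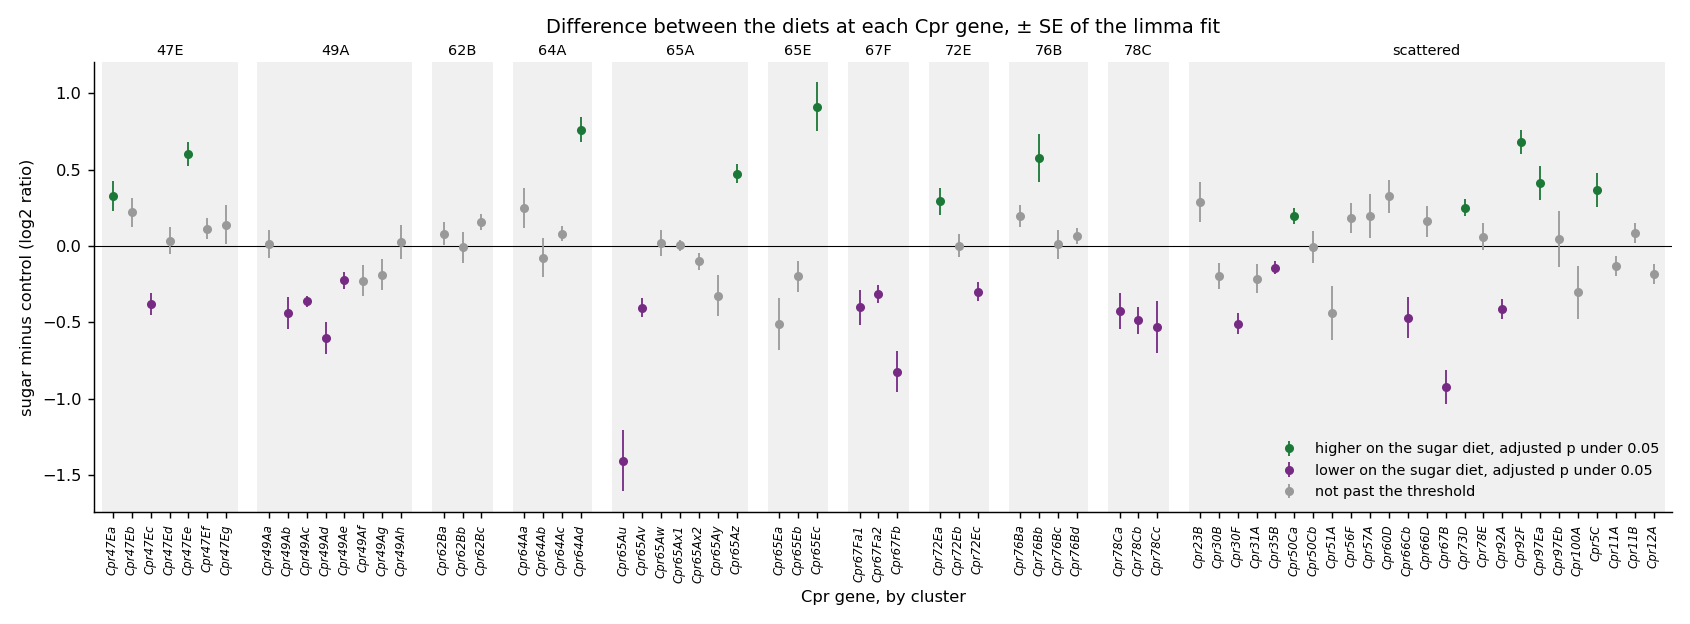
Difference between the diets at each of the 70 *Cpr* genes (sugar minus control, log2 ratio, vertical axis), by cluster (horizontal axis). Points are fitted differences and bars their SE, green for the 12 genes higher and purple for the 19 lower on the sugar diet, grey for those not past the threshold, and the 67F and 78C clusters are purple throughout, before any correction for GC content.

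*Cpr65Ec* rose most. Its levels were −0.11, −0.39 and −0.04 on the control diet and 0.60, 0.57 and 1.03 on the sugar diet, so that the gene went from below 0 in each control replicate to clearly above it. The difference was 0.91 ± 0.16 (SE, n = 3 per diet, limma adjusted p = 0.0076) over 7 fragments. *Cpr64Ad*, the gene with the lowest control diet level, came up to about 0, with sugar diet levels of 0.02, −0.01 and −0.02 (difference 0.76 ± 0.08, limma adjusted p = 0.0023). *Cpr92F* was already above 0, at 0.59, 0.34 and 0.43, and reached 1.06, 1.13 and 1.20, the highest levels in the family on either diet (difference 0.68 ± 0.08, limma adjusted p = 0.0027). *Cpr47Ee* went from −0.19, −0.38 and −0.12 to 0.42, 0.38 and 0.32, a rise of 0.60 ± 0.08 (limma adjusted p = 0.0034). *Cpr76Bb* rose by 0.58 ± 0.16 (limma adjusted p = 0.029), from −0.33, −0.07 and −0.56 to 0.14, 0.16 and 0.48. For *Cpr76Bb* the adjusted p-value lay between 0.053 and 0.079 when control diet replicate 1 or 3 or sugar diet replicate 2 or 3 was left out. With 5 kb on each side *Cpr65Ec*, *Cpr64Ad* and *Cpr92F* no longer passed the threshold, with differences of 0.09, 0.14 and 0.18.

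*Cpr65Au* fell most. Its levels were 0.43, 0.14 and 0.28 on the control diet and −1.52, −1.07 and −0.78 on the sugar diet, the lowest mean of the family, and the difference was −1.41 ± 0.20 (limma adjusted p = 0.0042) over 6 fragments. *Cpr67B*, a scattered gene, went from 0.51, 0.24 and 0.25 to −0.74, −0.58 and −0.45 (difference −0.92 ± 0.11, limma adjusted p = 0.0029). *Cpr67Fb* had control diet levels around 0, at −0.02, 0.20 and −0.13, and sugar diet levels of −0.69, −0.68 and −1.05 (difference −0.82 ± 0.14, limma adjusted p = 0.0065). *Cpr49Ad*, among the highest on the control diet, came down to 0.03, 0.03 and −0.27 (difference −0.60 ± 0.10, limma adjusted p = 0.0071). With GC content corrected for, *Cpr49Ad* differed by −0.08 and *Cpr67Fb* by −0.19 and neither was called (limma adjusted p = 0.54 and 0.25). *Cpr78Cc* had control diet levels of 0.53, 0.03 and −0.11 and sugar diet levels of −0.43, −0.30 and −0.40. Its fall of −0.53 ± 0.17 was just past the threshold (limma adjusted p = 0.049), and the adjusted p-value was 0.086 to 0.12 without control diet replicate 2 or any one sugar diet replicate. These 5 falls, like the 5 rises above, were picked among genes past the threshold whose replicates do not overlap between the diets. Their separation thus follows from the choice.

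The other genes past the threshold moved less. *Cpr65Az*, the highest member of 65A, rose from 0.44, 0.28 and 0.46 to 0.84, 0.91 and 0.84. *Cpr78Cb* fell from the levels given above to −0.11, 0.12 and 0.20, and *Cpr47Ec* from 0.20, 0.26 and 0.02 to −0.27, −0.22 and −0.17. *Cpr72Ec* fell from 0.30, 0.12 and 0.19 to −0.05, −0.15 and −0.10. Several of the highest and lowest genes did not pass. *Cpr66D* had sugar diet levels of 0.64, 0.62 and 0.84 (difference 0.16 ± 0.10, limma adjusted p = 0.23), and *Cpr65Eb* had 0.25, 0.41 and 0.57 (difference −0.20 ± 0.10, limma adjusted p = 0.16). The difference at *Cpr65Ea* was −0.51 ± 0.17 (limma adjusted p = 0.051), with control diet replicate 3 near the sugar diet values, and without that replicate it was −0.68 (limma adjusted p = 0.011), while without any other single replicate the adjusted p-value was 0.068 to 0.14. *Cpr57A* and *Cpr60D* stayed below 0 in every sample, and *Cpr62Bb* lay between 0.33 and 0.65 in all 6.

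Taken as single stretches, the clusters differed in level and in direction. The 65E cluster had the highest control diet level, 0.42 ± 0.12 (SD, n = 3), and the 64A cluster the lowest, −0.34 ± 0.08. On the sugar diet 67F was lowest. The 3 genes of 67F (*Cpr67Fa1*, *Cpr67Fa2* and *Cpr67Fb*) all fell, and the cluster went from 0.14, 0.22 and 0.02 to −0.43, −0.26 and −0.52. The 3 genes of 78C all fell too, with the cluster at 0.34, 0.27 and 0.12 on the control diet and −0.32, −0.16 and −0.11 on the sugar diet. In both, the diets did not overlap. With GC content corrected for, 0 of the 3 genes of 67F and 1 of 78C, *Cpr78Cb*, were still called lower. The 49A cluster went from 0.02 to −0.10 in the mean, and 4 of its 8 genes fell and 0 rose. The 64A cluster went from −0.34 to −0.06, and of its 4 genes 1 was called, *Cpr64Ad*. The 47E cluster went from −0.10 to −0.01, with *Cpr47Ea* and *Cpr47Ee* higher and *Cpr47Ec* lower. In the 62B, 65E, 72E and 76B clusters the diets overlapped. Of these, 62B had 0 of 3 genes called, and in 65E a rise at *Cpr65Ec* stood beside lower, uncalled values at *Cpr65Ea* and *Cpr65Eb*. When control diet replicate 1 or 2 or sugar diet replicate 1 or 3 was left out, the limma adjusted p-value was 0.10 to 0.11 for *Cpr47Ea* and 0.071 to 0.10 for *Cpr67Fa1*. Genes called in opposite directions occurred in 3 clusters (47E, 65A and 72E). Exact two-sided permutation tests gave p = 0.1 for the 6 clusters whose diets did not overlap, the smallest value that 3 against 3 samples allow, so none of the 10 could pass (Benjamini-Hochberg adjusted p = 0.167 for the 6).

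The 65A cluster spans 30.35 kb, and the 7 *Cpr* genes there are interleaved with genes of the *Lcp65A* family, which encode larval cuticle proteins. Its level went from 0.27, 0.14 and 0.14 to −0.20, −0.09 and −0.07. The changes ran in both directions. At the left end *Cpr65Au* and the adjoining *Lcp65Ag3*, *Lcp65Ag2* and *Lcp65Ag1* all fell, by 1.41, 0.94, 1.67 and 0.49 on the log2 scale, and *Cpr65Av* fell by 0.40. The windows of *Lcp65Ag3*, *Cpr65Au*, *Lcp65Ag2* and *Lcp65Ag1* overlap, each with the next, and share fragments, so their falls are not independent. The last member at the right end, *Cpr65Az*, rose by 0.47 ± 0.06 (limma adjusted p = 0.0034). Between them, *Lcp65Ae* and *CG13297* fell by 0.40 and 0.86 on the log2 scale. *Cpr65Ay* differed by −0.33 (limma adjusted p = 0.0935), *Cpr65Aw* had 0.35 on the control and 0.37 on the sugar diet, and *fmt*, just beyond the right end, fell by 0.33. The nearest common peak lay 6.85 kb from *Cpr65Au*, where high fragments cover an end of the transcription factor gene *Ets65A* and the adjoining end of *l(3)mbn*. The level of *Ets65A* was 2.98 (control) and 3.73 (sugar), far above that of any cuticle gene of the cluster, and that of *l(3)mbn* was 0.70 and 0.42.

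**Figure D3:**
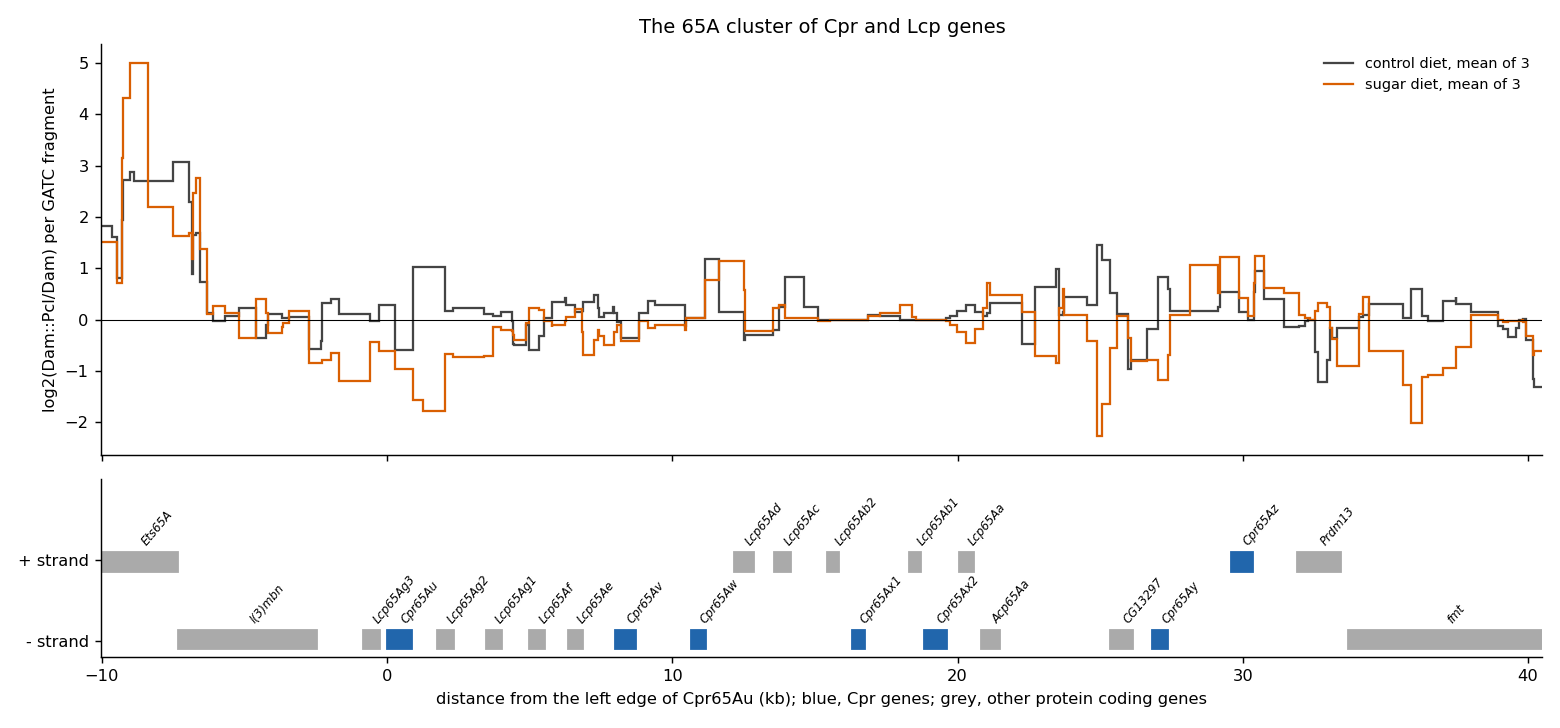
log2(*Dam::Pcl/Dam*) of each GATC fragment around the 65A cluster (vertical axis, mean of 3 replicates, grey for the control and orange for the sugar diet) by distance from the left edge of *Cpr65Au* in kb, above the protein coding genes of each strand, *Cpr* genes in blue. The high fragments on the left lie over *Ets65A* and the adjoining end of *l(3)mbn*, the sugar diet trace lies below 0 around *Cpr65Au*, and both traces are at 0 over *Cpr65Ax1* and most of *Cpr65Ax2*.

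*Cpr65Ax1* and *Cpr65Ax2* have coding sequences of 306 bases that are 100% identical, and the 250 bases upstream, printed above, are 96.4% identical. In *Cpr65Ax1* 48.7% of the window, and in *Cpr65Ax2* 36.9%, lay in fragments with a ratio of exactly 0 in all 6 samples. The level of *Cpr65Ax1* accordingly ran from 0.01 to 0.05 over the 6 samples, and its difference was 0.00 ± 0.04. How reads from near-identical copies were assigned is not given in the sources used here, so the values of both genes are uncertain, and the part of shared sequence in the ratios of 0 was not tested. The other close pair, *Cpr67Fa1* and *Cpr67Fa2*, has coding sequences of 402 bases that are 96.5% identical and upstream stretches that are 62.1% identical. No fragment of their windows was at 0 in all samples. *Cpr67Fa1* went from 0.29, 0.26 and 0.06 to −0.38, −0.01 and −0.20, and *Cpr67Fa2* from 0.14, 0.20 and 0.15 to −0.16, −0.06 and −0.24. No other pair of the 1352 aligned reached 80% identity, and the median was 46.6%.

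The direction of the differences depended on which part of the window was read. Over the gene span alone, with no flank, 20 of 69 *Cpr* genes rose and 10 fell, against 12 and 19 with the 1 kb flanks. *Cpr65Ec*, the largest rise with the flanks, could not be tested here, as its span held fewer than 2 fragments. The background over all genes moved the same way, from 22.3% higher and 25.7% lower to 26.6% higher and 20.7% lower. Of the 31 genes called with the flanks, 15 were called in the same direction over the span and 1 in the opposite one. *Cpr64Ad* had a span level of −1.51 on the control and 0.20 on the sugar diet, a rise of 1.70. *Cpr47Ee* and *Cpr76Bb* rose by 1.34 and 1.33 over their spans. *Cpr49Aa*, whose window hardly differed (0.01), rose over its span by 1.34 (limma adjusted p = 0.0068), and *Cpr65Eb* rose by 0.78 there (limma adjusted p = 0.019), while its window difference was −0.20. In contrast the falls at *Cpr65Au* and *Cpr67B* lay mostly in the flanks, since their span differences were −0.54 (limma adjusted p = 0.15) and −0.18 (limma adjusted p = 0.13). *Cpr65Ay* fell by 1.47 over its span (limma adjusted p = 0.029) and by 0.33 over its window, the latter not past the threshold. *Cpr49Aa*, *Cpr65Ay* and the span values of *Cpr65Eb* were singled out after their values were seen.

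Averaged around the start sites of the 70 genes, the control diet replicates went from 0.34, 0.22 and 0.21 at 1000 to 500 bp upstream to −0.10, −0.19 and −0.12 in the first 500 bp of the genes. The sugar diet replicates showed no such dip below 0, with 0.02, 0.02 and 0.12 in the same 500 bp, and all lay above the control diet there. Between 2500 and 3000 bp downstream, which for most members is beyond the gene end, the order was the opposite. There the control diet replicates had 0.31, 0.18 and 0.15, and the sugar diet replicates −0.17, −0.11 and −0.09. Over all protein coding genes the values 2500 to 3000 bp downstream overlapped between the diets, at 0.07 ± 0.05 and 0.05 ± 0.03 (SD, n = 3). In the first 500 bp the means over all protein coding genes were 0.03 ± 0.06 and 0.10 ± 0.05. The bins named were singled out after their values were seen, and the one at 2500 to 3000 bp had the widest gap between the diets. The bins hold several *Cpr* genes of 1 cluster at once, and the difference from other genes was not tested.

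**Figure D4:**
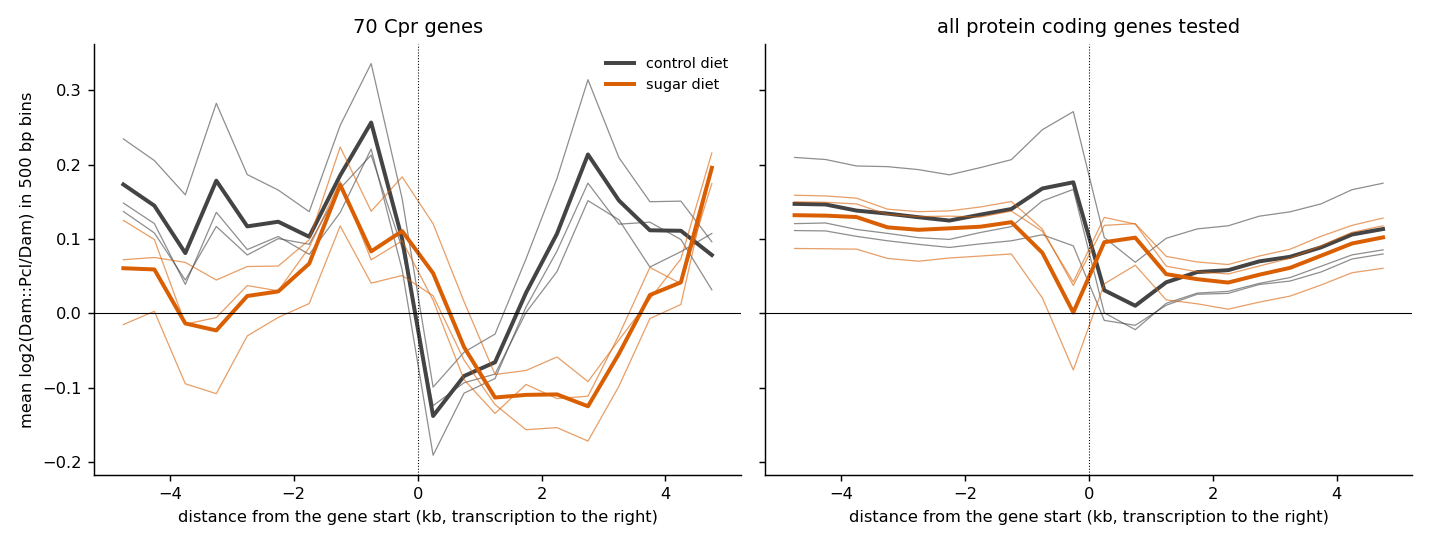
Mean log2(*Dam::Pcl/Dam*) in bins of 500 bp (vertical axis) by distance from the gene start in kb, for the 70 *Cpr* genes (left) and all protein coding genes tested (right). Thin lines are single replicates and thick lines the mean of 3, grey for the control and orange for the sugar diet. At 2500 to 3000 bp downstream of the *Cpr* starts, the bin with the widest gap, the control diet mean is 0.21 and the sugar diet mean −0.12.

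The genes that lie among the *Cpr* genes were also near 0 in level. Inside the clusters there were 22 other protein coding genes, with a median control diet level of 0.14 and a median difference of −0.21, against 0.05 and 0.00 for the 45 *Cpr* genes of the clusters. Of the 22 genes 1 rose and 9 fell, of the 45 *Cpr* genes 7 and 14, and of all genes tested 22.3% rose and 25.7% fell. None of the 22 overlapped a common peak. Within 20 kb of the clusters lay 100 more, with a median level of −0.05 and a median difference of −0.07, of which 14 rose and 35 fell, together near the 48.0% called of all genes. Here 7 overlapped a common peak, 3 of them by 64A, 2 by 65A and 2 by 65E. Around 67F, where all 3 *Cpr* genes fell, 5 of 7 neighbours fell and 0 rose, with a median difference of −0.45. This is before any correction for GC content, which is 37.5% over the 67F cluster. With GC content corrected for, none of its *Cpr* genes was called lower, and corrected values of the neighbours are not given here. Inside 78C both genes, the ecdysone-dependent cuticle gene *Edg78E* and *CG43702*, fell, as did the *Cpr* genes around them. The window of *Edg78E* overlaps that of *Cpr78Cb*. Windows of neighbours can share fragments with those of *Cpr* genes, and such values are not independent.

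The differences moved with base composition. Across the 70 genes the difference correlated with the GC content of the window (Pearson's r = 0.54, Spearman's rho = 0.54), and across all genes tested r was 0.67 and rho 0.68. These are across genes, which share libraries and in part fragments, and are given as a description. In the 23 *Cpr* genes of lowest GC content (36.4% to 41.6%) 2 rose and 13 fell, with a median difference of −0.40. In the 24 genes next in order (up to 44.5%) 5 rose and 3 fell, and in the 23 of highest GC content (44.5% to 50.4%) 5 rose and 3 fell, with a median difference of 0.08. Over all genes tested 22.3% rose and 25.7% fell. The shares of all genes within these ranges of GC content are not given here, so a departure of the family from them was not tested. *Cpr65Au* (37.6% GC), *Cpr49Ad* (37.8%) and the 67F genes (36.4% to 36.9%) lie at the AT-rich end. When the dependence on GC content over all genes was subtracted, 26 *Cpr* genes were called, 13 higher and 13 lower, which is 37.1% against 33.2% of all genes. Of the 31 calls 17 remained in the same direction, 13 were lost and 1 turned. *Cpr65Au* (−0.88), *Cpr67B* (−0.66), *Cpr65Ec* (1.07), *Cpr64Ad* (0.54) and *Cpr92F* (0.45) remained past the threshold. *Cpr49Ad* (−0.08), *Cpr67Fb* (−0.19) and *Cpr78Cc* (−0.29) did not, and *Cpr67Fa2* turned to 0.35 (limma adjusted p = 0.013). The cluster differences of 67F and 64A became 0.01 and 0.00, both of the opposite sign. The part of GC content in these differences was not tested.

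**Figure D5:**
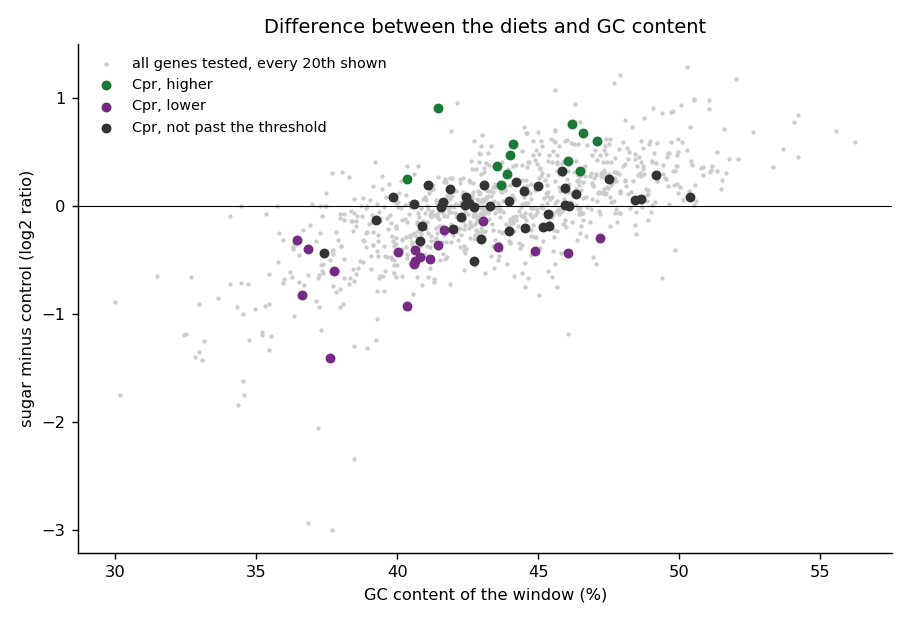
Difference between the diets (sugar minus control, log2 ratio, vertical axis) against the GC content of the window in percent (horizontal axis) for the 70 *Cpr* genes, coloured by call, over every 20th of all genes tested in grey. The *Cpr* genes follow the slope of the grey points (0.69 against 0.79 per 10% of GC content), with 13 of the 19 lower genes among the 23 of lowest GC content. Of all genes tested, at any GC content, 25.7% were lower.

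Other genes of the cuticle were taken from lists by symbol. Of 58 other cuticular protein genes, 14 rose and 14 fell, 48.3% against the background of 48.0%. With GC content corrected for, 6 rose and 10 fell, 27.6% against 33.2% of all genes. The median control diet level of the 58 was 0.16, and 2 of them (3.45%) overlapped a common peak, *Ccp84Ac* and *TwdlQ*. The 7 *Ccp84A* genes, which lie inside the Antennapedia complex among Hox genes, had control diet levels from 0.62 to 2.12, all above the highest *Cpr* gene. The ecdysone-dependent *Edg84A* had the highest level of the list, 3.43, 3.47 and 2.68 on the control diet and 2.46, 2.72 and 3.06 on the sugar diet. The 25 *Twdl* genes, which encode Tweedle cuticle proteins, had 9 higher and 2 lower at a median GC content of 46.0%, and the 15 *Lcp* genes had 1 higher and 8 lower at 39.3%, where 22.3% of all genes were higher and 25.7% lower. *Lcp65Ag2* (37.0% GC) fell by 1.67 on the log2 scale. *resilin* (50.1% GC), for the elastic cuticle protein, rose by 0.60, from −0.20, −0.38 and −0.14 to 0.34, 0.38 and 0.36.

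Of 29 genes that make, bind or cut chitin, 2 rose and 6 fell, 27.6% against 48.0% of all genes, with a median control diet level of −0.06. The chitin deacetylase gene *Cda5* (40.1% GC) fell by 0.44 ± 0.07 (limma adjusted p = 0.0054). It overlapped a common peak, as did *serp*, which encodes another chitin deacetylase. The chitin synthase gene *Chs2* (47.7% GC) rose by 0.35. The chitinase genes *Cht4*, *Cht9* and *Cht10* (41.25%, 39.9% and 36.7% GC) fell by 0.25, 0.37 and 0.46. Of 11 genes of cuticle tanning and pigment, 3 rose and 2 fell, 45.5% against 48.0% of all genes. *stw* (36.5% GC), which encodes a laccase that cross-links cuticle, fell by 1.02, and *y* (37.2% GC), the gene *yellow*, by 0.50. *b* and *e* (48.8% and 45.7% GC), whose products make and attach beta-alanine, rose by 0.75 and 0.34. *Pu* (45.5% GC), for GTP cyclohydrolase, rose by 0.47. None of these 11 overlapped a common peak. With GC content corrected for, 1 chitin gene rose and 6 fell (24.1%), and 3 tanning genes rose and 2 fell (45.5%), against 33.2% of all genes called. Corrected differences of the single genes of these lists are not given here.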

How the data were processed

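Per the methods, the authors dropped low-quality reads (score below 30) and ran damidseq_pipeline, which aligns with Bowtie2 to dm6 and lengthens each read to 300 bp or as far as the next GATC. The values deposited are log2 ratios, *Dam::Pcl* over *Dam*, 1 per GATC fragment. Tool versions and the normalization option are not given in the sources used here. The 6 *Dam::Pcl* files were used. All 373710 fragments on 2L, 2R, 3L, 3R, 4 and X start at a GATC of the Release 6 genome, so the coordinates match that build. Of the 383654 fragments on all sequences, 11.8% to 12.5% per sample were at exactly 0. The deposited log2 ratios hold no counts. The depth is therefore unknown, no counting interval was given, and the 3 samples per diet, called biological replicates in the labels, limit the precision.

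Length-weighted means were taken over each gene of the Ensembl annotation (release 115, BDGP6.54, transposable elements left out) with 1 kb on each side. Genes with at least 2 fragments were tested, 18119 of 18164. The methods compare read counts with DiffBind, which ratios do not allow, so lmFit and eBayes of limma 3.58.1 (R 4.3.3) were used with an adjusted p-value under 0.05. The find_peaks procedure named in the methods was re-implemented (quantiles 0.95 to 0.99, 100 shuffles). On simulated data with 200 of 18119 genes shifted by 1, limma recovered 170 (85%) with 6 false calls. The simulated noise was independent between genes and without a dependence on GC content. In the data 48.0% of genes were called, mostly with smaller differences, so these rates do not carry over to the calls here. Means, alignments and figures were made in Python 3.11.15 with numpy 2.4.6, pandas 2.3.3, scipy 1.17.1, Biopython 1.88 and matplotlib 3.10.9.

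The members and lists were chosen with earlier results of these data known. Of the members, the text names the 5 highest and 5 lowest on the control diet, the 5 largest rises and falls past the threshold without overlap, the highest and most different member of each cluster, and pairs with coding sequences at least 95% identical, which stood in for the protein identity planned since no protein table was used here. The other lists were cuticle proteins by symbol, chitin genes, and tanning genes, of which 11 of 12 symbols matched. In the GC correction the dependence of each sample on GC content, over all genes, was subtracted. Other windows, scalings, thresholds, a replicate block and each replicate left out were tried.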

Additional observations from a re-analysis of the deposited data

How the results depend on the processing

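The 31 *Cpr* calls became 15 with the median of the fragments in place of the weighted mean (27.7% of all genes called, against 48.0%). At an adjusted p-value under 0.01 they were 16 (25.5% of all genes), and against a minimum fold change of 1.5 they were 0 (1.34%). With one replicate left out they were 19 to 26, where 33.6% to 42.2% of all genes were called. Same-numbered samples of the diets had correlations of their deviations of −0.299, 0.213 and −0.21, so no pairing by replicate number was seen. Deviations from a mean of 3 samples depend on each other, so these values cannot exclude a pairing. With the replicate block 21 genes were called (35.0% of all genes), and with the block and the GC correction 16 (21.7%). In the other settings the count was 26 to 38, where 33.2% to 57.7% of all genes were called. The median difference over the family, 0.00, was −0.049 with 5 kb on each side, −0.0898 with median and MAD scaling (−0.07 over all genes), and −0.0392 to 0.0149 with one replicate left out. The median control diet level, 0.07, was 0.286 with that scaling and −0.0106 over the span alone. With the GC correction the 64A cluster differed by −0.0024 and the 67F cluster by 0.0128. Common peaks were met by 2 genes with 5 kb on each side and by 0 in the other 9 settings. Among named genes past the threshold in at least one of the settings compared, the sign turned for *Cpr47Ea* (−0.13), *Cpr64Ab* (0.22) and *Cpr65Az* (−0.14) with 5 kb on each side, for *Cpr62Bb* (0.34) with the median of the fragments, where *Cpr72Ec* was at 0, for *Cpr65Eb* (0.78) and *Cpr72Ec* (0.23) over the span alone, and for *Cpr67Fa1* (0.21) and *Cpr67Fa2* (0.35) with the GC correction, with or without the block. Sign changes without a call on either side are not listed. None of the 17 named genes past the threshold kept its call in all 19 settings. The causes were not tested.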
